A study of Mus musculus with 8 samples.

Results

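The genes described here are receptors, junction proteins and a ligand best known from blood vessel endothelium, measured here in haematopoietic stem cells (HSCs), the self-renewing source of all blood lineages. They were chosen by symbol: Kdr, Flt1 and Flt4, Tek and Tie1, Angpt1, Cdh5, Robo4, Emcn and Nrp1, 10 genes of 38172 in the deposited table. The study compared C57BL/6 mice aged 4 months, here called young, with others aged 24 months, called old. The sort gate was SP-KSL-CD150+ and the cells were taken fresh: dye-effluxing side population cells with Kit, Sca-1 and CD150 on the surface and without lineage markers. Each age had 2 biological replicates, numbered 13 and 14, each with 2 technical libraries of polyadenylated RNA. How many animals a replicate pooled is not given in the labels.

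Endothelium and blood stem cells arise from related cells in the embryo and share part of their gene programme. The VEGF receptors are tyrosine kinases that bind vascular endothelial growth factors and drive vessel growth, and neuropilins are co-receptors for the same ligands. Tek (also called Tie2) is the receptor for angiopoietins, Tie1 is its close relative, and Angpt1 is its main activating ligand, and in the marrow this system is known for its role in stem cell quiescence and adhesion to the niche.

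The libraries held scaled values, that is, whole numbers whose spacing fits read counts times a factor specific to the library. They summed to between 40.7 M and 44.2 M per library, and the spacing of the whole numbers gave between 22.3 M and 66.5 M reads before that scaling. All 12 genes listed as markers of the sorted cells were measured above the filter on low values. Kit was the most abundant, at 56382 and 54958.5 in young, against 57824 and 63949.5 in the old replicates. Slamf1 (CD150) and Procr rose, as did 2.01% of all tested genes. Markers of other cells were present at lower summed values. The 12 stroma markers summed to 7003.5 to 7464.5 in young and 3157 to 3395 in old replicates, with Col1a2 the most abundant. The 10 erythroid markers, led by Car1, summed to 12888.5 to 14600 and 5821 to 6438. Of these 10 genes 6 fell, against 0.54% of all tested genes. Megakaryocyte markers, led by Itga2b, gave 20318 to 25723.5 and 23178 to 26034.5, and lymphoid markers, led by Nkg7, 2476 to 3430 and 1991.5 to 2260.5. Replicate 14 exceeded replicate 13 at both ages in the summed values of the neutrophil and of the macrophage markers. C1qa, C1qb and Mrc1 of the macrophage list did not follow this order in old HSCs, nor did C1qc in young HSCs. The 11 neutrophil markers, led by Mpo, summed to 10047.5 and 48855 for young replicates 13 and 14 and 6195 and 18517.5 for the same numbers in old HSCs. The 10 matched macrophage and monocyte markers, led by Ly6c2, summed to 2818, 8504, 1991 and 4244.5 in the same order.

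Among the 10 genes only Kdr passed the test for a change with age, with a rise of 2.48-fold. Testing was done with limma on log2(scaled value + 0.5) after averaging technical libraries, with a Benjamini-Hochberg adjusted p under 0.05 as the threshold. At that threshold 2.55% of the 18318 tested genes differed in either direction and 2.01% were higher in old HSCs. The median log2 fold change of the 10 genes was 0.05 and that of all tested genes was 0.04. Of the 10 genes 6 lay above 0, against 56.5% of all tested genes. In 6 of the 10 genes both old replicates lay on 1 side of both young replicates, against 42.1% of all tested genes, so this arrangement was near the background. In sorted bulk samples a change in the share of cells that express a gene and a change in RNA per cell cannot be told apart.

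**Figure D1:**
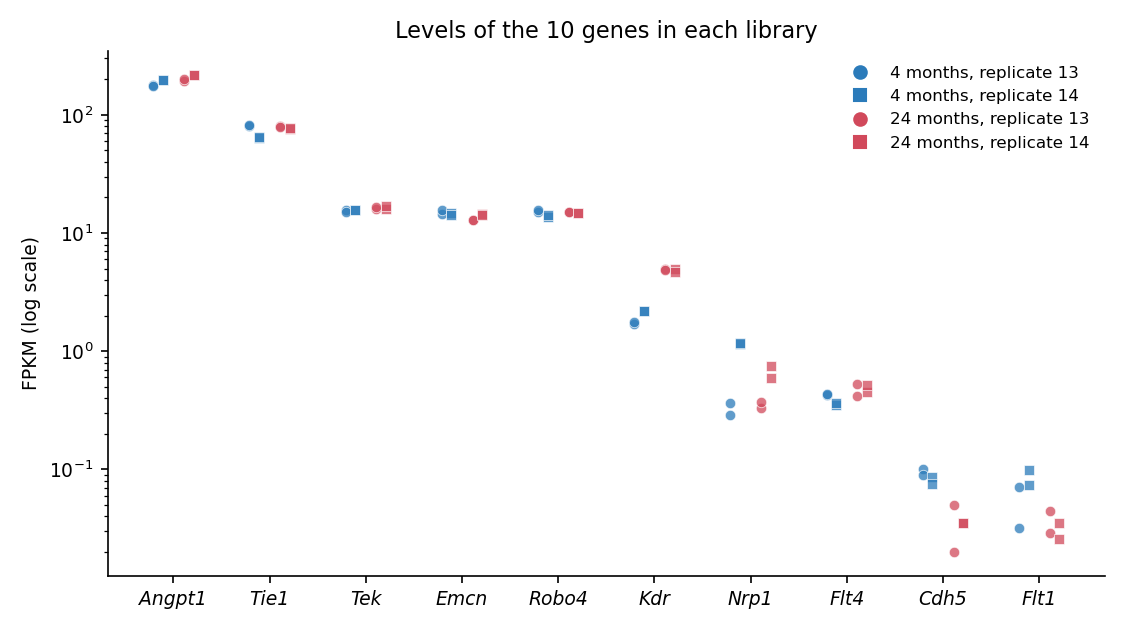
FPKM of the 10 genes on a log scale in each of the 8 libraries, ordered by level in young HSCs, with colour for age and symbol shape for replicate. Angpt1 and Tie1 lie highest, Tek, Emcn and Robo4 lie close together near 15 FPKM, and Cdh5 and Flt1 lie lowest; Kdr is higher in old HSCs in all 4 libraries.

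The levels of the genes spanned more than 3 orders of magnitude when compared as FPKM, which corrects for length. In young HSCs Angpt1 was highest at 187 ± 14.3 FPKM (SD, n = 2 per age throughout), followed by Tie1 at 72.8 ± 11.9. Tek at 15.5 ± 0.383, Emcn at 14.7 ± 0.381 and Robo4 at 14.6 ± 1.05 came next, and the replicate ranges of Emcn and Robo4 overlapped. Kdr at 1.97 ± 0.334 FPKM stood apart from both neighbours. Nrp1 at 0.747 ± 0.597 and Flt4 at 0.394 ± 0.0511 overlapped, as did Cdh5 at 0.0881 ± 0.0107 and Flt1 at 0.0688 ± 0.0249. In old HSCs the order was the same except that Robo4 (14.9 ± 0.179) stood above Emcn (13.6 ± 1.07), and Nrp1 and Flt4, and Cdh5 and Flt1, again overlapped. By rank among all genes in the table, Angpt1 held rank 142 in young and rank 136 in old HSCs, and Tie1 ranks 664 and 622. Kdr moved from rank 12168 to rank 10144.

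The VEGF receptors differed from each other in level and in their values with age. Kdr encodes VEGFR2, the main signalling receptor for VEGF-A on endothelium, and lies on the minus strand of chromosome 5 from 76329299 to 76374453 in mm9. Its scaled value was 470 and 598 for young replicates 13 and 14 and 1331.5 and 1296.5 for the same numbers in old HSCs. Both old replicates were at more than the level of both young ones multiplied by 2, and the technical libraries differed little, lying between 462 and 599 in young and between 1260 and 1347 in old HSCs. The log2 fold change was 1.31 (SE 0.18, limma adjusted p = 0.0158), with a 95% confidence interval of 1.85 to 3.31 for the fold. About 2317 reads over the 4 young libraries and 4624 over the 4 old ones stood behind these values. The log2 fold change was 1.29 without old replicate 13 and 1.33 without old replicate 14. It was 1.13 without young replicate 13 and 1.48 without young replicate 14. Of these fits, each with 1 sample in an age, only that without young replicate 14 kept the call. The fold stayed between 2.19 and 2.79 in all 16 alternative settings. Without the filter on low values the limma adjusted p of Kdr was 0.116, and 0 genes in all passed in that setting. Without a trend of variance on level it was 0.0627.

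Flt4 encodes VEGFR3, the receptor for VEGF-C that marks lymphatic endothelium. It was 125 and 104 in the young replicates, against 137.5 and 141 in the old ones. The groups did not overlap, but the difference was small, with a log2 fold change of 0.29 (95% confidence interval -0.28 to 0.86, limma adjusted p = 0.696). Flt1 encodes VEGFR1, which binds VEGF-A and placental growth factor and is known as a decoy as well as a signalling receptor. It was near the limit of measurement, at 16 and 27 in young, against 11.5 and 9.5 in old replicates. These values came from about 87 reads over the young and 37 over the old libraries, and the technical libraries of a replicate differed by up to 1.1 on the log2 scale. Flt1 had a log2 fold change of -0.96 (95% confidence interval -2.00 to 0.08, limma adjusted p = 0.406). Per length, Kdr exceeded Flt4 by a factor of 4.03 and 6.17 in the young replicates, against 10.4 and 9.86 in the old ones.

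Nrp1, the VEGF and semaphorin co-receptor, varied more between replicates than between ages. It was 96 and 345 for young replicates 13 and 14 and 103.5 and 198.5 for the same numbers in old HSCs. Replicate 14 was higher than replicate 13 at both ages, by a factor of 3.59 in young and 1.92 in old HSCs, and the ages overlapped. The log2 fold change was -0.34 (SE 0.59, 95% confidence interval -1.75 to 1.06, limma adjusted p = 0.869), and it was 0.58 without young replicate 14 and 0.12 without old replicate 13. The summed neutrophil and macrophage markers given above were also higher in replicate 14 at both ages. The part of such cells in the values of Nrp1 was not tested. The row of Nrp1 is joined in the table with the microRNA gene Mir1903.

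**Figure D2:**
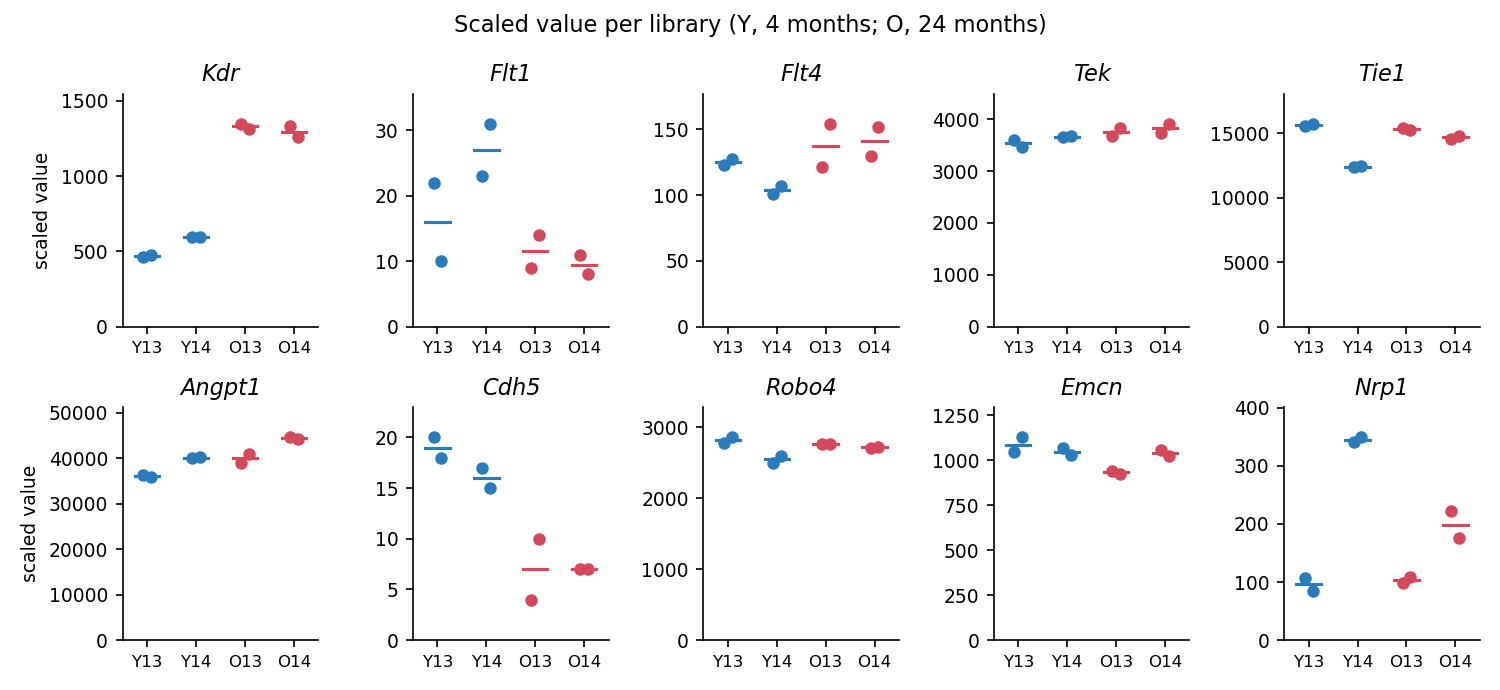
Scaled value of each gene in each of the 8 libraries, with axes from 0; points are technical libraries, bars their mean, Y is 4 months, O is 24 months, and 13 and 14 are the biological replicates. Kdr is 462 to 599 in the young and 1260 to 1347 in the old libraries, whereas Nrp1 separates replicate 14 from replicate 13.

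The angiopoietin receptors and their ligand were abundant at both ages and did not pass the test. Tek was 3537 and 3662.5 in the young replicates, against 3751.5 and 3820.5 in the old ones. The old values lay just above the young ones, a log2 fold change of 0.07 with a 95% confidence interval of 0.846 to 1.31 for the fold (limma adjusted p = 0.877). Tie1, an orphan receptor that modulates Tek, was 15656.5 and 12414.5 in young, against 15332.5 and 14682 in old replicates. Young 13 was highest and young 14 lowest, with the old replicates between them, and the interval of the fold was 0.808 to 1.43 (limma adjusted p = 0.861). Per length, Tie1 exceeded Tek by a factor of 5.32 and 4.07 in young and 4.91 and 4.62 in old replicates.

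Angpt1 was 36062.5 and 40167.5 in young, against 40008 and 44396 in old replicates. Young 14 slightly exceeded old 13, so the ages overlapped, and the fold of 1.11 had an interval of 0.809 to 1.52 (limma adjusted p = 0.816). In the mm9 build Angpt1 lies on the minus strand of chromosome 15 from 42256271 to 42508341. An unnamed model on the opposite strand, HAG_013156, covers 42256154 to 42258858 at the 3′ end of Angpt1 and held values of 50.9% and 51.6% of those of Angpt1 in young and 53.4% and 53.8% in old replicates. Reads there cannot be assigned to a strand from the sources used here, so the level of Angpt1 is uncertain in this respect. The other 9 genes overlapped no other model in the table.

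**Figure D3:**
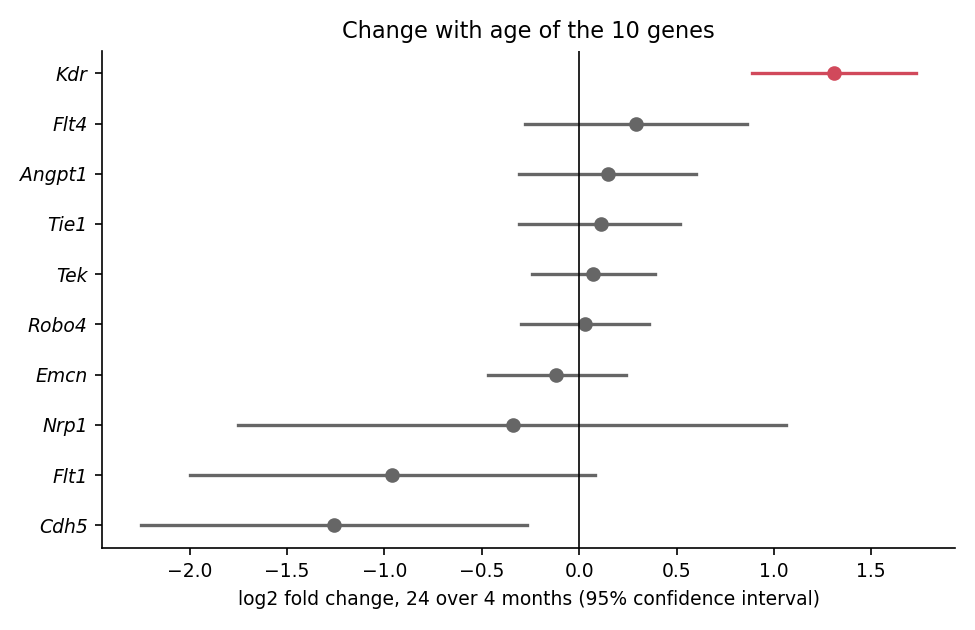
Log2 fold change of each gene, 24 over 4 months, with its 95% confidence interval from limma (n = 2 per age); red marks an adjusted p under 0.05. Kdr alone is past the threshold at 1.31, and the intervals of Tek, Robo4 and Emcn are the narrowest around 0.

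The RefSeq promoter windows of Kdr, Tek and Tie1 are shown because Kdr rose while these 2 other receptor kinases of high level did not pass. Each is the 250 bases before the annotated start, 5′ to 3′ on the strand of the gene, in the GRCm38.p6 build, with capitals marking GGAA or its complement TTCC, the core of sites for ETS factors, which are known regulators of endothelial and blood stem cell genes. Kdr lies on the minus strand at chr5:75978456-75978705, Tek on the plus strand at chr4:94739039-94739288 and Tie1 on the minus strand at chr4:118489850-118490099.
Kdr: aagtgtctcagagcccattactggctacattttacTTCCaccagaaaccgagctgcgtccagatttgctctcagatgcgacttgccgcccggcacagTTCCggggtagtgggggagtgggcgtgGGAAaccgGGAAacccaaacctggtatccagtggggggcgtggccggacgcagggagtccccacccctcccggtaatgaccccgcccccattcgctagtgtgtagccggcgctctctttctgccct
Tek: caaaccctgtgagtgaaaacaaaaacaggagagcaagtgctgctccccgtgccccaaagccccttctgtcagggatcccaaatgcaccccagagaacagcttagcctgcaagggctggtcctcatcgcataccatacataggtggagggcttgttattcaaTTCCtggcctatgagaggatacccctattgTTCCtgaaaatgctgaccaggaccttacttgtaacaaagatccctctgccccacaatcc
Tie1: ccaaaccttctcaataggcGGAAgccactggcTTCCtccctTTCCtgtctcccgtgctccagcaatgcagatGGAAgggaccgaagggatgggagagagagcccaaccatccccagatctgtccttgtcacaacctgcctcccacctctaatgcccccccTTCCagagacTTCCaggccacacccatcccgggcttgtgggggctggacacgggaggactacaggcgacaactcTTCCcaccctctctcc
The core occurred 4 times in the window of Kdr, 2 times in that of Tek and 7 times in that of Tie1. It is short, and 93.4% of 32851 promoter windows of the same length held at least 1, with a median of 3. All 8 of the genes with an entry held it (Angpt1 and Cdh5 had none). The GC box GGGCGG, searched on both strands like the others, was in 4 of the 8 windows and in 32.7% of all windows. It occurred 2 times in Kdr, 3 times each in Flt1 and Flt4 and 1 time in Nrp1. The windows of Tek, Tie1, Robo4 and Emcn held 0. GATAA was in 0 of the 8 windows and in 22.6% of all windows, and the E-box CANNTG was in 6 of the 8 and in 66.2% of all windows. TATAAA was in 1 of the 8, that of Flt1, and in 12.4% of all windows. These matches describe letters in the windows and not bound sites.

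Robo4 and Emcn, surface proteins of endothelium, had levels like that of Tek. Robo4, a roundabout receptor known for stabilising vessels and for anchoring stem cells in the niche, was 2817.5 and 2544 in young, against 2759.5 and 2713 in old replicates. The old values lay between the young ones, and the fold of 1.02 had a 95% confidence interval of 0.814 to 1.28 (limma adjusted p = 0.957). Emcn encodes endomucin, a sialomucin of venous and capillary endothelium that also marks HSCs. It was 1087.5 and 1048.5 in young, against 932 and 1042 in old replicates. Both old values lay below both young ones by a small margin, with a fold of 0.923 and an interval of 0.72 to 1.18 (limma adjusted p = 0.817).

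Cdh5 encodes VE-cadherin, the cadherin of endothelial junctions, and was among the lowest of the 10 genes. It was 19 and 16 in the young replicates, against 7 and 7 in the old ones. Both old values lay below both young ones, but they rested on about 74 reads over the young and 25 over the old libraries. To be tested, a gene had to reach a value of 10 in 2 or more replicates, and Cdh5 passed it only through the young group, so a difference was built into its being tested. Its log2 fold change was -1.26 (SE 0.42, limma adjusted p = 0.224).

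The mature endothelium markers, 17 genes not used to describe stem cells, had lower summed values than the markers of the sorted cells at both ages. They summed to 1120.5 to 1374.5 in young and 1744.5 to 2006.5 in old replicates, and 10 were tested. Sox18, a transcription factor of endothelium, was the most abundant. It was 324.5 and 250.5 in young, against 496.5 and 676 in old replicates (limma adjusted p = 0.084). Per length Sox18 was at 3.56 FPKM in young and 7.25 in old HSCs, and Kdr at 1.97 and 4.85. Of the 10 tested markers Rasip1 and Emp2 rose, that is 20%, against 2.01% of all tested genes. Of the 10 markers 4 lay above 0 and 6 below, and 56.5% of all tested genes lay above 0. The median log2 fold change of the 10 markers was -0.40, against 0.04 for all tested genes. Rasip1, a Ras-interacting protein of forming vessels, was 259.5 and 195 in young, against 506 and 549 in old replicates (limma adjusted p = 0.0361). With equal library totals its limma adjusted p was 0.0593 and with limma-voom 0.0553, against 0.0196 and 0.0211 for Emp2. Car4 was at 0 in every library. Cdh13 was at 1 and 2.5 in the young replicates and at 0 in all old libraries, and it was not tested. Stab2, a receptor of sinusoidal endothelium, was 112 and 107 in young, against 48 and 32 in old replicates (limma adjusted p = 0.0681). The summed value was thus higher in both old replicates, as were Sox18, Rasip1, Emp2 and Kdr, but 6 of the 10 tested markers lay below 0. The part of endothelial cells in the rise of Kdr was not tested.

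Ligands and partners of these receptors mostly did not pass the test. Of 41 listed genes 34 were tested, 1 rose and 1 fell, and their median log2 fold change was 0.02, with 18 above 0. Of all tested genes 2.01% rose, 0.54% fell and 56.5% lay above 0. Sema3e, a semaphorin that binds plexin D1, was 48 and 51.5 in young, against 164.5 and 168 in old replicates, a log2 fold change of 1.73 (limma adjusted p = 0.0197). Plxna2, a semaphorin receptor that pairs with neuropilins, was 335.5 and 264 in young, against 119 and 78.5 in old replicates, a log2 fold change of -1.62 (limma adjusted p = 0.0369). Both were low per length, at 0.145 and 0.486 FPKM for Sema3e in young and old HSCs. With the lower- or the higher-numbered technical libraries alone limma called 0 genes of this list, with 7 and 6 at an unadjusted p under 0.05. Without any 1 of the 4 replicates neither Sema3e (adjusted p 0.0668 to 0.264) nor Plxna2 (0.0834 to 0.296) passed.

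Of the ligands of Kdr, Vegfa and Vegfc were measured above the filter on low values in the sorted samples. Vegfa, the main ligand of Kdr, was 831.5 and 822 in young, against 672.5 and 468.5 in old replicates (limma adjusted p = 0.285). Vegfc, a ligand of Flt4 that also binds Kdr, was 580 and 550.5 in young, against 494.5 and 605.5 in old replicates. Pgf, a ligand of Flt1, was at 10 and 10 in young, against 8 and 10.5 in old replicates, and Figf (VEGF-D) did not pass the filter. Angpt2, the context-dependent antagonist of Tek, was at 11 and 10 in young, against 9 and 7 in old replicates, far below Angpt1. Ptprb, the phosphatase VE-PTP that acts on Tek, was 59.5 and 44 in young, against 72.5 and 50 in old replicates. Dok2, an adaptor that binds activated Tek, was 1552 and 1304.5 in young, against 1428 and 1467 in old replicates, a log2 fold change of 0.02. The most abundant gene of the list was Ctnnb1, beta-catenin, which links cadherins to the cytoskeleton, at 145 and 165 FPKM.

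Other surface and junction genes known from endothelium included more that rose. Of all tested genes 2.01% rose, 0.54% fell and 56.5% lay above 0. Of 37 listed genes 33 were tested, 8 rose and 1 fell, and 26 lay above 0 with a median log2 fold change of 0.41. Several of them are also known as HSC or platelet genes, and the list was chosen with earlier results of these data known, so its count is no independent evidence of a direction. Ramp2, which makes the receptor Calcrl respond to adrenomedullin, was 77.5 and 88 in young, against 663.5 and 884.5 in old replicates, a log2 fold change of 3.21 (limma adjusted p = 0.00197). Its partner Calcrl was 4959.5 and 5230.5 in young, against 5533 and 8285.5 in old replicates and did not pass (limma adjusted p = 0.465). Jam2, a junctional adhesion molecule, was 970 and 968 in young, against 2855.5 and 3438.5 in old replicates, a log2 fold change of 1.69. Clec14a, a C-type lectin of endothelium, was 399.5 and 333.5 in young, against 702 and 807 in old replicates, a log2 fold change of 1.04, and Thbd, thrombomodulin, had a log2 fold change of 0.79. Cldn5, Selp, Vwf and Procr were the other genes that rose, with log2 fold changes of 3.46, 2.43, 1.61 and 0.84, and Cd34 was the gene that fell, with -0.94. Cldn5, Selp, Ramp2 and Jam2 each passed in 13 of the 16 alternatives and Vwf in 11, against 7 for Clec14a and Cd34, 5 for Thbd and 3 for Procr. Without old replicate 13 or old replicate 14 limma called 0 genes of this list, with 19 and 15 at an unadjusted p under 0.05.

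Several of the best known endothelial surface genes did not pass. Pecam1, the adhesion molecule CD31, was 2747.5 and 3232.5 in young, against 2944 and 2905 in old replicates, a log2 fold change of -0.03. Eng, a co-receptor for TGF-beta family ligands, had a log2 fold change of 0.20, and Icam2 one of 0.15. Eltd1, an adhesion G protein-coupled receptor and the most abundant gene of the list, was 30744 and 35474 in young, against 43918.5 and 65425.5 in old replicates (limma adjusted p = 0.255).

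**Figure D4:**
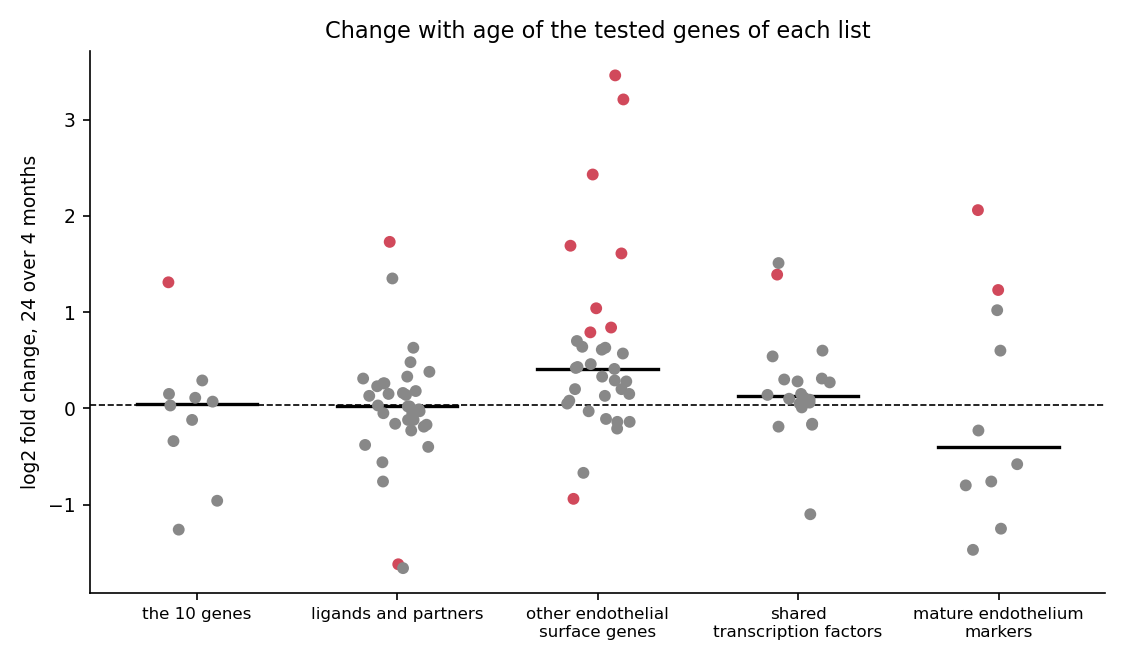
Log2 fold change, 24 over 4 months, of the tested genes of each list; each point is a gene, red marks a limma adjusted p under 0.05, the solid bar is the median of the list and the dashed line the median of all tested genes, 0.04. The other surface genes have a median of 0.41, and the 10 genes, their ligands and partners have medians of 0.05 and 0.02.

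Of 22 transcription factors known from both endothelium and blood stem cells 20 were tested and Epas1 rose. That was 5% of those tested, and 2.01% of all tested genes rose. Epas1, the hypoxia-inducible factor HIF-2 alpha, which is known to activate Kdr and Tek in endothelium, was 267 and 208.5 in young, against 637.5 and 598 in old replicates, a log2 fold change of 1.39 (limma adjusted p = 0.0199). Its call was lost in 5 of the 16 alternatives, some of which left 1 sample in an age. The log2 fold change was 1.34 without old replicate 13 and 1.43 without old replicate 14. It was 1.56 without young replicate 13 and 1.21 without young replicate 14. The limma adjusted p of Epas1 was 0.127 without the filter on low values, where 0 genes in all passed, and 0.0579 without the variance trend. The list had a median of 0.12, against 0.04 for all tested genes. Of the 20 tested 16 lay above 0, against 56.5% of all tested genes. The list was chosen with earlier results of these data known. Lmo2 was its most abundant gene, at 397 and 479 FPKM (limma adjusted p = 0.627). Fli1 was 6410.5 and 6863.5 in young, against 8175 and 7927 in old replicates, and Erg was 8836.5 and 8143 in young, against 9177.5 and 7895.5 in old replicates. Both are ETS factors of endothelium and HSCs, and they had log2 fold changes of 0.28 and 0.01 (limma adjusted p = 0.461 and 0.995). Sox7 was low, at 15 and 9 in young, against 31 and 37.5 in old replicates, and Etv2 was at 0 in every library. Sox17 was at 0.5 and 0 in the young replicates and at 0 in every old library, and it was not tested.

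The likeness of other genes to Kdr was measured as the root mean square distance between log2 values centred over the 4 replicates, among 10603 named genes whose mean FPKM reached 1. The nearest were Cd200r4 at 0.046, Aspa at 0.056 and Lhfp at 0.066. Cd200r4 was 56 and 75.5 in young, against 157 and 151 in old replicates, and Aspa was 360.5 and 451.5 in young, against 963 and 1044.5 in old replicates. For Cdh5, which had the next smallest p of the 10 genes, they were Mc5r at 0.039, Ebi3 at 0.083 and St3gal5 at 0.085. The technical libraries of a Cdh5 replicate differed by up to 1.22 on the log2 scale, far more than these distances. Cdh5 was also tested only through its young values, so its nearest genes are uncertain. With 4 replicates these distances describe a shared shape over few points.

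The authors' deposited table marked Kdr as higher and Nrp1 as lower in old HSCs, that is 2 of the 10 genes, against 11.8% of the 22284 genes with an adjusted p there. The authors' deposited table gave Kdr a log2 fold change of 1.27 with an FDR of 1.27e-18, and Nrp1 one of -0.59 with an FDR of 0.0256. The sources used here do not state which libraries entered that comparison as replicates. The replicates of Nrp1 overlapped between ages, as described above.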

How the data were processed

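Polyadenylated RNA of sorted HSCs was sequenced in 8 libraries, 4 per age, from 2 biological replicates with technical duplicates. The submitters' processing notes name DESeq and mm9; for the aligner and the counter the sources used here give no name. The deposited values per gene are treated as a score, since they are whole numbers that fit reads multiplied by 1 factor per library and rounded. The FPKM values deposited by the authors equal that score times a constant per gene. The authors also deposited a comparison with log2 fold changes and FDR values (adjusted p-values). Because the scores are scaled, no count model was used.

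Technical libraries were averaged, genes with a score of at least 10 in at least 2 of 4 replicates were kept, and log2(score + 0.5) was tested with limma 3.58.1 (R 4.3.3, variance trend, Benjamini-Hochberg over all 18318 genes, n = 2 per age). An exact permutation test of 2 against 2 cannot give a two-sided p below 0.333, so none is reported. The limma fit was also run on simulated data with known changes. The simulated noise was drawn from the variances of the same fit, independently for each replicate. It therefore does not cover differences that replicate numbers share between the ages. Alternatives covered scaling, filter, pseudocount, variance model, technical libraries, a replicate block and leaving out each replicate. Read numbers were estimated from the spacing of the scores and cover counting error only. On simulated libraries this estimate found random factors but failed for factors whose multiples fall exactly midway between whole numbers. In 4 of the 8 real libraries the estimated factor skips whole numbers up to 100, and 0 genes held such a number there. The factor was fitted to the same spacing, and the other libraries skip no number. This is therefore no independent check of the read numbers.

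The members and lists were chosen with earlier results of these data known. Of each list the genes past the threshold, the most abundant gene and, for marker lists, genes at 0 were named, with the 3 genes nearest in pattern to the 2 members of smallest p. Vegfa, Vegfc, Pgf, Figf, Angpt2, Ptprb, Dok2, Calcrl, Pecam1, Eng, Icam2, Fli1, Erg, Sox7, Klf2 and Stab2 were named for their known roles or values after these were seen. Promoter windows came from RefSeq, GRCm38.p6, and were matched by symbol; all other coordinates are those of the files, mm9.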

Additional observations from a re-analysis of the deposited data

How the results depend on the processing

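Kdr was higher in old HSCs in all 16 alternatives and passed the threshold in 11. The main counts were 467 genes in all, 1 of the 10 members, 2 ligands or partners, 9 surface genes and 1 transcription factor. Without the filter on low values limma called 0 genes in all and 0 in each of these groups, with 2943 genes, 2 members, 7 ligands or partners, 16 surface genes and 4 transcription factors at an unadjusted p under 0.05. Without a variance trend it called 0 members, 1 ligand or partner, 5 surface genes and 0 transcription factors (3, 6, 15 and 2 unadjusted). The lower-numbered technical libraries gave 293 genes in all, 0 ligands or partners and 5 surface genes, and the higher-numbered ones 0 ligands or partners. A mean FPKM of at least 1 gave 302 genes and 0 ligands or partners, and equal library totals and limma-voom gave 1 ligand or partner each. Leaving out 1 replicate gave 0 to 274 genes in all, 0 to 1 members, 0 to 1 ligands or partners, 0 to 4 surface genes and 0 to 2 transcription factors, with 0 genes in all without old replicate 13 (3669 unadjusted) or old replicate 14 (1933 unadjusted).

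With the replicate number as a replicate block limma called 2766 of the 18318 tested genes. It called 2 of the 10 members, 7 ligands or partners, 17 surface genes and 4 transcription factors. The 2 members were Kdr, and Cdh5 with a limma adjusted p of 0.0372. Cdh5 passed the filter on low values only through the young group, so a difference was built into its being tested. The differences between replicates 13 and 14 correlated at 0.544 between the ages over genes, but with 2 pairs and no label for a shared batch the numbers were not taken as pairing.

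Direction turned in 5 cases, none of them called. Tie1 was -0.06 without young replicate 14. Robo4 was -0.01 with median-ratio size factors and -0.04 without young replicate 14. Nrp1 was 0.12 without old replicate 13 and 0.58 without young replicate 14. Over the leave-one-out fits Tie1 reached 0.27 and Robo4 0.11, and Nrp1 fell to -1.26. The cause was not tested. Depth limits Flt1 and Cdh5, with about 87 and 74 reads in young and 37 and 25 in old HSCs.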

Other observations

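Klf2, a transcription factor induced by blood flow in endothelium and known for quiescence in lymphocytes, varied widely between replicates. Its scaled value was 36 for young replicate 13 but 1862.5 for young replicate 14, and 59 for old replicate 13 but 248.5 for old replicate 14. Replicate 14 was higher at both ages, as for Nrp1 and the neutrophil markers, and the ages overlapped (log2 fold change -1.10, SE 1.63, limma adjusted p = 0.842). The part of other cells in these values was not tested.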
